A study of Mus musculus with 12 samples.

Results

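Genes that take glucose into brain cells, split it to pyruvate, exchange it with lactate and pass it to mitochondria were followed in whole brain of mice with and without Il18, the gene of the inflammatory cytokine interleukin-18. The list holds 38 genes, named for their place in this pathway and chosen with earlier results of these data known. The array design carries 37 of the 38 names, and all 37 passed the filter on dim probes and were well above background on all 12 arrays, among 26495 genes tested. The missing name is Mpc1, a subunit of the mitochondrial pyruvate carrier. RefSeq gives Brp44l, a name the design does carry, as its synonym, and the 2 Brp44l probes are described with the pyruvate genes.

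Glycolysis turns glucose into pyruvate in the cytosol, after GLUT transporters let the sugar in and hexokinase traps it as a phosphate. Lactate dehydrogenase interconverts pyruvate and lactate, and monocarboxylate transporters move lactate across membranes. In brain, astrocytes and oligodendrocytes can release lactate and neurons can take it up. Pyruvate that enters the mitochondrion is committed to the citric acid cycle by the pyruvate dehydrogenase complex, which kinases switch off and phosphatases switch on. Glycogen, stored in brain mainly by astrocytes, feeds glucose phosphate into the same path.

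The mice were of the BALB/c strain, untreated, and formed 4 groups of 3: wild type at 6 weeks, wild type at 12 weeks, Il18 knockout at 6 weeks and Il18 knockout at 12 weeks. Total RNA of 1 whole brain was hybridised to each one-colour Agilent array. Every cell type of the brain contributes to such RNA, so fewer cells of a type and less RNA per cell cannot be told apart. The labels give no sex, litter or origin of the mice and no account of the deleted part of Il18.

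Of the non-control spots, each array had between 65.9% and 76.2% marked well above background. The Il18 probe gave 1.51 to 1.93 in wild type and -0.32 to -0.17 in knockout, on the log2 scale used throughout: signal relative to the 75th percentile of its own array, so 0 is that percentile. The arrays lay on 2 slides, and the scan dates in the headers parted them in the same way. Slide 1 held the 6 wild types of both ages with 2 of the young knockouts (replicates 1 and 2), and slide 2 held the third young knockout (replicate 3) with the 3 knockouts of 12 weeks. At 12 weeks genotype and slide therefore coincide, and a fit with slide as a block rests on the 6-week knockouts alone for the slide effect. In that group slide 2 held 1 mouse, so a slide effect and a trait of that mouse cannot be told apart in any blocked value. The array barcodes hold a second number, called slide column here. It was 2 for the young wild types and replicate 1 of the 12-week wild types, and 1 for the rest. That this number is a column of the slide was not tested. At 6 weeks genotype and column therefore coincide. A fit with column as a block rests on the 12-week wild types alone for the column effect. With 3 arrays a group, the number of arrays limits the precision of every value below.

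The result at 6 weeks rests on 1 probe of Slc16a7, the gene of MCT2, a monocarboxylate transporter with high affinity that is found mainly on neurons. Its letters, read from the deposited scan files, are shown because a second probe of the gene gave another result. The probe lies at chr10:124665183-124665242 on build mm9, minus strand, as the files give it.

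Slc16a7 probe: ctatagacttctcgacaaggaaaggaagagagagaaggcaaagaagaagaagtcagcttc

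The 12-week result involves many enzymes at a time, so the bases before the RefSeq start sites of 5 of the 8 members with the smallest adjusted p there are shown, from build GRCm38.p6. These 5 have a listed start site at the outer end of the gene, and each sequence is the 250 bases before it, written 5′ to 3′ on the gene's strand. Capitals mark ACGTG or its reverse complement CACGT, the core letters bound by hypoxia-inducible factors and by carbohydrate and clock factors of the E-box kind. Both strands were searched, and the palindrome CACGTG holds both forms in overlap.

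Tpi1, chr6:124814159-124814408, strand -: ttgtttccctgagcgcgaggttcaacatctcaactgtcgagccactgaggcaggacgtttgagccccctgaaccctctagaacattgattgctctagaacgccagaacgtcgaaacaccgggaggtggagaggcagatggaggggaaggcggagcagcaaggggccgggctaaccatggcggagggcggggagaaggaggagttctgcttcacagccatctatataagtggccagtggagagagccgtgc
Gpi1, chr7:34230337-34230586, strand -: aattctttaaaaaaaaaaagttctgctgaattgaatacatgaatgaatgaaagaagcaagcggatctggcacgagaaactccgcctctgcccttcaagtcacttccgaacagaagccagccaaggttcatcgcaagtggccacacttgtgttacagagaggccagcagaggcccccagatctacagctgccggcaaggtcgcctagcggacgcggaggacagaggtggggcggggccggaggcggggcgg
Eno2, chr6:124769674-124769923, strand -: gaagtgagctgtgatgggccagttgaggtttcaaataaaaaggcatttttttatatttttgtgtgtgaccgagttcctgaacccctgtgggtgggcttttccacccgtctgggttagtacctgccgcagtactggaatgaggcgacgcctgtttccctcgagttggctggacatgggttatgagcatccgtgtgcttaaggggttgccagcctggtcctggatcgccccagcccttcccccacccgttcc
Pfkm, chr15:98092339-98092588, strand +: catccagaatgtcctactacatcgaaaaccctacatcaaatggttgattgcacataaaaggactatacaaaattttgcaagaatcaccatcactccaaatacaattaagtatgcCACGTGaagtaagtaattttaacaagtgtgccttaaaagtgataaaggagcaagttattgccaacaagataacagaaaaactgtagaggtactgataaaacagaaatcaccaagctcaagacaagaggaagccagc
Pdk2, chr11:95041372-95041621, strand -: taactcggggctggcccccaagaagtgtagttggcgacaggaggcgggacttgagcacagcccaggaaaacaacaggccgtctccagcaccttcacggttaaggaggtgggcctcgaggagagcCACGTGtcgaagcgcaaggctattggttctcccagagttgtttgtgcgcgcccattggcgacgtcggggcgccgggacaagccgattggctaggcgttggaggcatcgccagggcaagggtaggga

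Of these 5 sequences, those of Pfkm and Pdk2 hold CACGTG and those of Tpi1, Gpi1 and Eno2 hold no match. RefSeq windows were found for 35 of the 38 genes, with none used here for Slc2a3, Slc16a7 and Pdp1, and 18 of the 35 had the letters in at least 1 window (51.4%), against 18.5% of 27025 genes. By window it was 22 of 51 (43.1%), against 16.6% of 32851. Of the 18 members with a window that were called higher at 12 weeks, 11 had a match (61.1%). A match is a description of the letters, not a binding site.

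At 6 weeks, 1 of the 37 genes was called by limma at an adjusted p under 0.05, the lactate transporter gene Slc16a7, which was lower in knockout. In all genes tested 0.377% were called lower and 0.547% higher, 0.925% in both directions. The median change of the 37 was 0.10, against 0.04 over all genes, with 26 above 0 and 11 below. Blocked by slide it was 0.03, against 0.02, with 20 above 0 and 17 below. The arrays of the 2 groups lay wholly apart for 9 of the 37 upward and 4 downward, against 15.3% and 8.33% of all genes.

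Slc16a7 stood at -1.42, -1.54 and -1.43 in the 6-week wild types and at -2.86, -2.26 and -2.45 in the 6-week knockouts. The 12-week wild types gave -2.47, -2.43 and -2.74, and the 12-week knockouts -2.37, -3.02 and -2.94. The 3 young wild types were thus above all 9 other arrays, which overlapped among themselves. The 6-week knockouts were lower by 1.06 ± 0.19 (SE, 3 arrays a group), a fold of 2.09 (limma adjusted p = 0.0329).

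In wild type, Slc16a7 also fell with age, by 1.09 ± 0.19 (limma adjusted p = 0.0352), and it was the only 1 of the 37 genes called in that comparison, where 0.638% of all genes were (0.208% lower, 0.43% higher). That comparison lies within slide 1, so slide as a block cannot change its size and is no test of the slide. With the block the limma adjusted p was 0.0375, where 1.49% of all genes were called. The call ended in a fit within slide 1 and with slide column as a block. In knockout the change with age was -0.25 ± 0.19 (adjusted p = 0.405), and at 12 weeks the knockout differed from wild type by -0.23 ± 0.19 (adjusted p = 0.366). The effect of the knockout at 12 weeks minus that at 6 weeks was 0.83 ± 0.27, and it was not called (limma adjusted p = 0.164). The comparisons at 6 weeks and with age in wild type share the 3 young wild-type arrays, so they are not separate evidence.

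The size of the 6-week change was about the same with slide as a block, -1.10 ± 0.22, but the call ended (limma adjusted p = 0.0713; 0.498% of all genes were called with the block). It also ended when any 1 of 5 of the 6 arrays was left out, all but knockout replicate 2 (highest adjusted p = 0.0971), and the age call ended without any 1 of its 6 arrays (highest adjusted p = 0.110). The 6-week wild types were all in slide column 2 and the 6-week knockouts all in column 1, so genotype and column cannot be told apart there. In column 2 as well, 12-week wild-type replicate 1 was at -2.47. With column as a block, which takes the column effect from the 12-week wild types, the 6-week change was -0.94 (limma adjusted p = 0.592). A second Slc16a7 probe, dimmer and above background on 8 arrays, lies at chr10:124663576-124663635. It read -5.45, -4.69 and -4.64 in the young wild types and -5.26, -5.37 and -5.12 in the young knockouts. These groups overlapped, and the change was -0.32 ± 0.20, not called when all probes were tested (limma adjusted p = 0.402). At 12 weeks that probe was lower in knockout by 0.59 ± 0.20 (adjusted p = 0.0438 over all probes), so the 2 probes were called at different ages.

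Of the lists of cell type markers, only that of endothelium held a gene called at 6 weeks. Of 7 neuron markers 0 were called, with a median change of 0.12. Astrocyte, oligodendrocyte and microglia markers had 0 called as well, with medians of 0.03, -0.13 and 0.04. The summed signals of liver and of endothelial markers did lie apart between the 6-week groups. The summed signal of the 3 liver markers measured, in units of the array's 75th percentile, was 0.0698 to 0.0992 in wild type and 0.793 to 1.28 in knockout, without overlap. Their changes were 4.08 ± 1.11 for albumin, Alb, 4.65 ± 1.08 for Ahsg and 3.31 ± 0.87 for Serpina1a, none of them called (limma adjusted p from 0.0771 to 0.113). Cldn5, a tight-junction gene of endothelium, was higher in knockout by 0.66 ± 0.09 (limma adjusted p = 0.0136, and 0.0428 when blocked by slide). It was the only 1 of 6 endothelial markers called, and the others ran from -0.10 for Kdr to 0.47 for Tek. The summed endothelial markers stood at 20.8 to 21.4 in wild type and 23.4 to 28.4 in knockout. Of 5 choroid plexus markers 0 were called, with a median change of -0.37. Their sums overlapped, at 69.3 to 95.2 in wild type and 48.4 to 81 in knockout. The part of these cell types in the 6-week results was not tested.

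**Figure D1:**
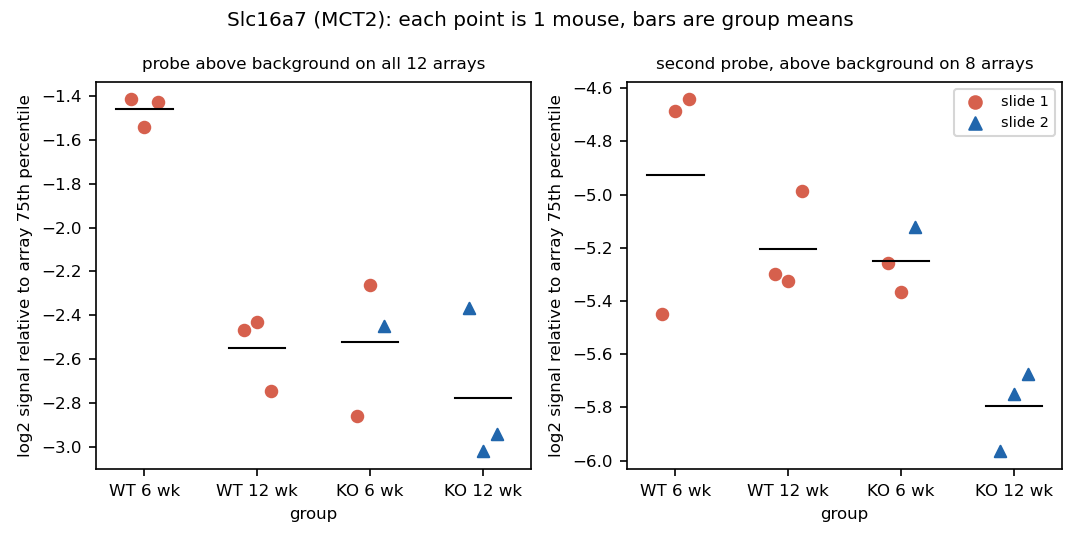
Signal of both Slc16a7 probes (log2 relative to the array's 75th percentile, vertical axes cover different ranges) in the 4 groups; each point is 1 mouse, bars are group means, circles are slide 1 and triangles slide 2. On the left, the 6-week wild types at -1.54 to -1.42 lie above all other arrays; on the right, the 6-week groups overlap.

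The other lactate genes were not called at 6 weeks. Slc16a1, the gene of MCT1 of endothelium and glia, gave -1.53, -1.89 and -2.01 in 6-week wild type and -2.29, -2.11 and -2.24 in 6-week knockout. The groups lay apart, and the change of -0.40 ± 0.16 was not called (adjusted p = 0.216). Slc16a3, the gene of MCT4, a transporter that exports lactate, had a change of 0.30 ± 0.12 (adjusted p = 0.220). Ldha and Ldhb, the subunits of lactate dehydrogenase, had changes of 0.23 ± 0.10 and 0.19 ± 0.09 (adjusted p = 0.238 and 0.296). Blocked by slide, Slc16a3, Ldha and Ldhb gave 0.17, 0.12 and 0.07.

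In the other roles the largest 6-week changes were those of Slc2a1, the glucose transporter of the blood-brain barrier (0.20 ± 0.10), of hexokinase 2, Hk2 (-0.43 ± 0.15), and of phosphoglycerate mutase, Pgam1 (0.26 ± 0.08). For the gates of pyruvate it was Pdp1, a phosphatase that activates pyruvate dehydrogenase (0.34 ± 0.11), for fructose-2,6-bisphosphate Pfkfb3, which makes this activator of phosphofructokinase (0.26 ± 0.11), and for glycogen the muscle phosphorylase Pygm (0.17 ± 0.13). None of these was called, and their adjusted p ran from 0.142 for Pgam1 to 0.485 for Pygm. Without knockout replicate 3, the slide 2 array, Slc2a1 gave 0.12, Hk2 -0.23, Pgam1 0.18, Pdp1 0.37, Pfkfb3 0.15 and Pygm -0.010. A second Pfkfb3 probe, much dimmer, had the opposite sign at 6 weeks, at -0.16 ± 0.13.

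At 12 weeks 5 of the 9 genes of upper glycolysis and 5 of the 5 of lower glycolysis were called higher in knockout, and 1, Hk2, lower. Of the 37 genes, 19 were called higher (51.4%) and 4 lower (10.8%) by limma, where 18.5% of all genes were called higher and 14.5% lower, 33% in all. The median change of the 37 was 0.26, against 0.02 over all genes. The arrays of the groups lay wholly apart for 24 of the 37 upward and 5 downward, against 29.2% and 23.1% of all genes. With slide as a block none of the 37 was called, the lowest adjusted p being 0.517, where 0.113% of all genes were, and the median was 0.04, against -0.04 over all genes. Without the block, 28 of the 37 had an unadjusted p under 0.05; with slide as a random block limma also called 0. Quantile normalization called 6 higher and 5 lower, and leaving out 1 array left 14 to 17 calls, with 14 without knockout replicate 1 or 2 and 15 without wild-type replicate 3. The shares of all genes under quantile normalization and without an array are not given here, so nothing is read from those counts about the list.

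All 5 genes of lower glycolysis, from glyceraldehyde phosphate to phosphoenolpyruvate, were called higher. Enolase 2, Eno2, the form of neurons, was at 6.06, 5.97 and 5.94 in 12-week wild type and at 6.65, 6.78 and 6.65 in 12-week knockout. The 6-week wild types stood at 6.17, 5.98 and 6.03, and the 6-week knockouts at 6.05, 6.05 and 6.73, of which the last was on slide 2. The 12-week groups did not overlap, and neither did the slides: the lowest slide 2 array, 6.65, was above the highest slide 1 array, 6.17. The change at 12 weeks was 0.71 ± 0.16, a fold of 1.63 (limma adjusted p = 0.0104). Blocked by slide it was 0.03 ± 0.12 (adjusted p = 0.970). The others were Gapdh (0.63 ± 0.15), enolase 1, Eno1 (0.47 ± 0.15), phosphoglycerate kinase Pgk1 (0.33 ± 0.09) and Pgam1 (0.31 ± 0.08), with -0.03, -0.14, 0.03 and 0.07 under the block.

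For Gapdh, a gene with many processed copies in the genome, the probe used is placed by the files on chromosome 7, away from the gene on chromosome 6. All 8 Gapdh probes rose at 12 weeks, by 0.32 to 0.66. The Pgk1 probe is placed on chromosome 3, while the gene lies on X, so signal from copies and from the gene cannot be told apart.

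In upper glycolysis, from glucose to the triose phosphates, 5 of 9 genes were called higher and 1 lower. Triosephosphate isomerase, Tpi1, which had the smallest p of all 37, read 5.64, 5.81 and 5.80 in 12-week wild type and 6.26, 6.37 and 6.37 in knockout. In the 6-week wild types it read 5.87, 5.82 and 5.74, and in the 6-week knockouts 5.92, 5.94 and 6.31. Again the 4 arrays of slide 2 were above the 8 of slide 1. Its change was 0.58 ± 0.10, a fold of 1.50 (limma adjusted p = 0.00598). Blocked by slide it was 0.21 ± 0.12 (adjusted p = 0.695).

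A second Tpi1 probe, at chr6:124761923-124761982 on mm9, gave the same 12-week change, 0.59 ± 0.11, with another pattern over the slides. It read 3.64, 3.59 and 3.65 in the 6-week knockouts, so that the slide 2 array stood beside the other 2, and 4.07, 3.75 and 4.21 in the 12-week knockouts. The 12-week wild types gave 3.42, 3.38 and 3.47. The 2 probes thus differ in where they put 6-week knockout replicate 3, and this second probe was singled out after its values were seen.

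Glucose phosphate isomerase, Gpi1, read 6.72, 6.71 and 6.69 in 12-week wild type and 7.24, 7.19 and 7.16 in knockout. Its 6-week values were 6.69, 6.88 and 6.90 in wild type and 6.79, 6.78 and 7.15 in knockout, of which the last, on slide 2, was above all 8 arrays of slide 1 and just below the 12-week knockouts. The 12-week change was 0.49 ± 0.10 (limma adjusted p = 0.00838), which became 0.12 when blocked by slide (adjusted p = 0.819), and 2 more Gpi1 probes gave 0.64 and 0.50. Aldolase A, Aldoa, rose by 0.53 ± 0.11 (adjusted p = 0.00967), the muscle phosphofructokinase subunit Pfkm by 0.51 ± 0.11 (0.00971), and aldolase C, Aldoc, an astrocyte enzyme, by 0.41 ± 0.13 (0.0362). Under the block these gave 0.04, 0.05 and -0.09, and under quantile normalization Aldoa turned to -0.037 (adjusted p = 0.663).

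The isoforms differed in their calls. Hk2 was at -1.68, -1.53 and -1.60 in 12-week wild type and at -1.98, -2.22 and -2.09 in 12-week knockout, while 6-week knockouts gave -1.52, -1.52 and, on slide 2, -2.11. It was lower by 0.49 ± 0.15 (limma adjusted p = 0.0291), and gave 0.10 with slide as a block. Hk1, the main hexokinase of brain, gave 0.16 ± 0.07 (adjusted p = 0.105). Its other 2 probes were called higher when all probes were tested, at 0.29 ± 0.08 (adjusted p = 0.0253) and 0.64 ± 0.19 (adjusted p = 0.0299). The phosphofructokinase subunits Pfkl and Pfkp gave 0.22 and 0.16 and were not called (adjusted p = 0.0688 and 0.0528), beside the called 0.51 of Pfkm. Whether the isoforms differ from each other was not tested. Of the glucose transporters, the neuronal Slc2a3 rose by 0.26 ± 0.09 (adjusted p = 0.0440), and Slc2a1 gave 0.24 ± 0.10 (adjusted p = 0.0954). Blocked by slide Slc2a3 gave 0.08 (adjusted p = 0.903), and its call ended without any 1 of 5 of the 6 arrays, all but wild-type replicate 1 (highest adjusted p = 0.125).

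**Figure D2:**
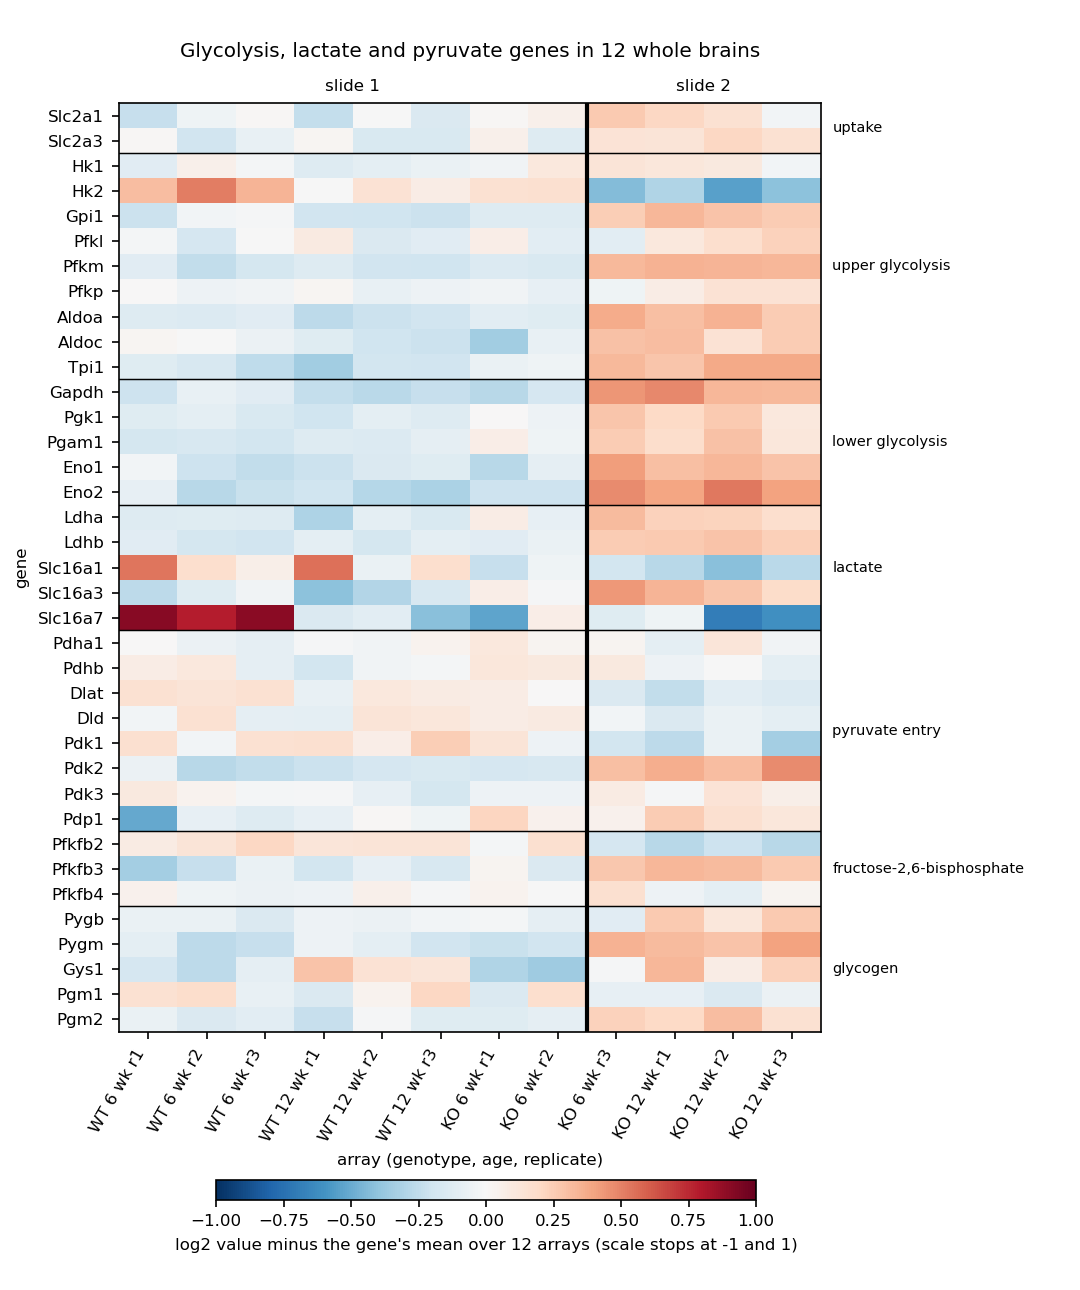
The 37 genes (rows, by role) in the 12 arrays (columns; the black line parts slide 1 from slide 2), coloured by log2 value minus the gene's mean over the arrays, with WT wild type, KO knockout and r replicate. For 18 genes all 4 slide 2 arrays, including 6-week knockout replicate 3, are above all 8 slide 1 arrays, and for 4 they are below.

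Among the lactate genes, 3 of 5 were called higher and 1 lower. Slc16a3 was at -1.04, -0.92 and -0.79 in 12-week wild type and at -0.29, -0.35 and -0.45 in knockout. At 6 weeks it was at -0.89, -0.75 and -0.66 in wild type and at -0.56, -0.64 and -0.19 in knockout. The knockouts were above their wild types at both ages without overlap, with the slide 2 array highest of all. The 12-week change was 0.55 ± 0.12 (limma adjusted p = 0.00929), which became 0.15 when blocked by slide (adjusted p = 0.837), and a second Slc16a3 probe gave 0.64. Ldha rose by 0.39 ± 0.10 (adjusted p = 0.0137) and Ldhb by 0.38 ± 0.09 (adjusted p = 0.0122), with 0.08 and 0.04 under the block.

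Slc16a1 went the other way, at -1.51, -2.13 and -1.89 in 12-week wild type and -2.34, -2.48 and -2.33 in knockout. It was lower by 0.54 ± 0.16 (limma adjusted p = 0.0263). It is 1 of 2 genes called at 12 weeks whose slide 2 array at 6 weeks did not stand on the same side of the other 2, since the 6-week knockouts read -2.29, -2.11 and, on slide 2, -2.24. With slide as a block its change was -0.50 ± 0.30, close to that without it, with a larger error and no call (adjusted p = 0.714). MCT1 and MCT4 genes thus moved in opposite directions in the knockouts' arrays at 12 weeks.

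At the entry of pyruvate into mitochondria, 1 of 8 genes was called higher and 1 lower, and none of the catalytic subunits was called. Pdha1 and Pdhb, of the E1 enzyme, gave 0.00 ± 0.07 and 0.03 ± 0.07, and Dld, the E3 enzyme, -0.15 ± 0.08 (adjusted p = 0.991, 0.813 and 0.186). A second Pdhb probe was lower by 0.83 and was called when all probes were tested. The 2 called genes were kinases that switch the complex off. Pdk2 read 2.21, 2.26 and 2.28 in 12-week wild type and 2.79, 2.73 and 2.90 in knockout. It rose by 0.56 ± 0.12 (limma adjusted p = 0.00939; 0.09 with slide as a block). Pdk1, a target of hypoxia-inducible factor, was lower by 0.38 ± 0.10 (adjusted p = 0.0202; -0.16 with the block). Pdk3 (0.15 ± 0.07) and Pdp1 (0.21 ± 0.11) were not called, but 2 more Pdp1 probes were when all probes were tested, at 0.42 (adjusted p = 0.0110) and 0.29 (adjusted p = 0.0205). The Brp44l probes gave 0.04 and -0.05 at 12 weeks and 0.01 and 0.12 at 6 weeks.

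Dlat, the E2 enzyme of pyruvate dehydrogenase, lies beside Il18: its probe is 53.2 kb from that of Il18 on chromosome 9 (chr9:50442953-50443012 on mm9). It read 2.80, 2.78 and 2.80 in 6-week wild type, 2.58, 2.76 and 2.74 in 12-week wild type, 2.73, 2.66 and 2.51 in 6-week knockout and 2.41, 2.55 and 2.52 in 12-week knockout. The knockouts were below their wild types at both ages without overlap, and the 4 slide 2 arrays were the lowest. The changes of -0.17 ± 0.08 and -0.20 ± 0.08 were not called (limma adjusted p = 0.285 and 0.0704), and gave -0.11 and -0.02 with slide as a block. At 12 weeks 4 of the other settings called it, among them normexp background correction (-0.37, adjusted p = 0.0101) and quantile normalization (-0.31, adjusted p = 0.0194), and so did 1 of the 6 fits with an array left out, that without wild-type replicate 1.

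Of the 3 bifunctional enzymes that set fructose-2,6-bisphosphate, 1 was called lower, 1 higher and 1 was not called at 12 weeks. Pfkfb2, the form of heart and other tissues, was at -0.08 in all 3 wild types of 12 weeks and at -0.48, -0.41 and -0.48 in the knockouts. In the 6-week groups it was at -0.12, -0.07 and 0.00 in wild type and at -0.22, -0.05 and -0.37 in knockout, the last on slide 2. It was lower at 12 weeks by 0.38 ± 0.08 (limma adjusted p = 0.00906), which became -0.14 when blocked by slide (adjusted p = 0.774). Pfkfb3 rose by 0.45 ± 0.11 (adjusted p = 0.0120; 0.12 with the block) and Pfkfb4 gave -0.04 ± 0.07 (adjusted p = 0.711). A second Pfkfb3 probe, much dimmer, gave 0.07 ± 0.13 and was not called when all probes were tested (limma adjusted p = 0.681).

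Of the glycogen genes, 3 of 5 were called higher at 12 weeks. Glycogen phosphorylase of brain, Pygb, read 2.26, 2.25 and 2.28 in 12-week wild type and 2.57, 2.42 and 2.57 in knockout. At 6 weeks it read 2.24, 2.24 and 2.16 in wild type and 2.29, 2.22 and 2.19 in knockout. Only the 12-week knockouts were high, and 6-week knockout replicate 3, on the same slide as they, was not. Pygb rose by 0.26 ± 0.06 against 12-week wild type (limma adjusted p = 0.0137). Blocked by slide it gave 0.32 ± 0.10 (adjusted p = 0.517). Pygm rose by 0.45 ± 0.13 (adjusted p = 0.0289), and turned to -0.11 with the block; its call ended without any 1 of the 6 arrays (adjusted p from 0.0533 to 0.0823). The phosphoglucomutase that the array names Pgm2, and RefSeq now names Pgm1, rose by 0.34 ± 0.10 (adjusted p = 0.0263). The one named Pgm1 on the array, now Pgm2, gave -0.13, and glycogen synthase, Gys1, 0.03.

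**Figure D3:**
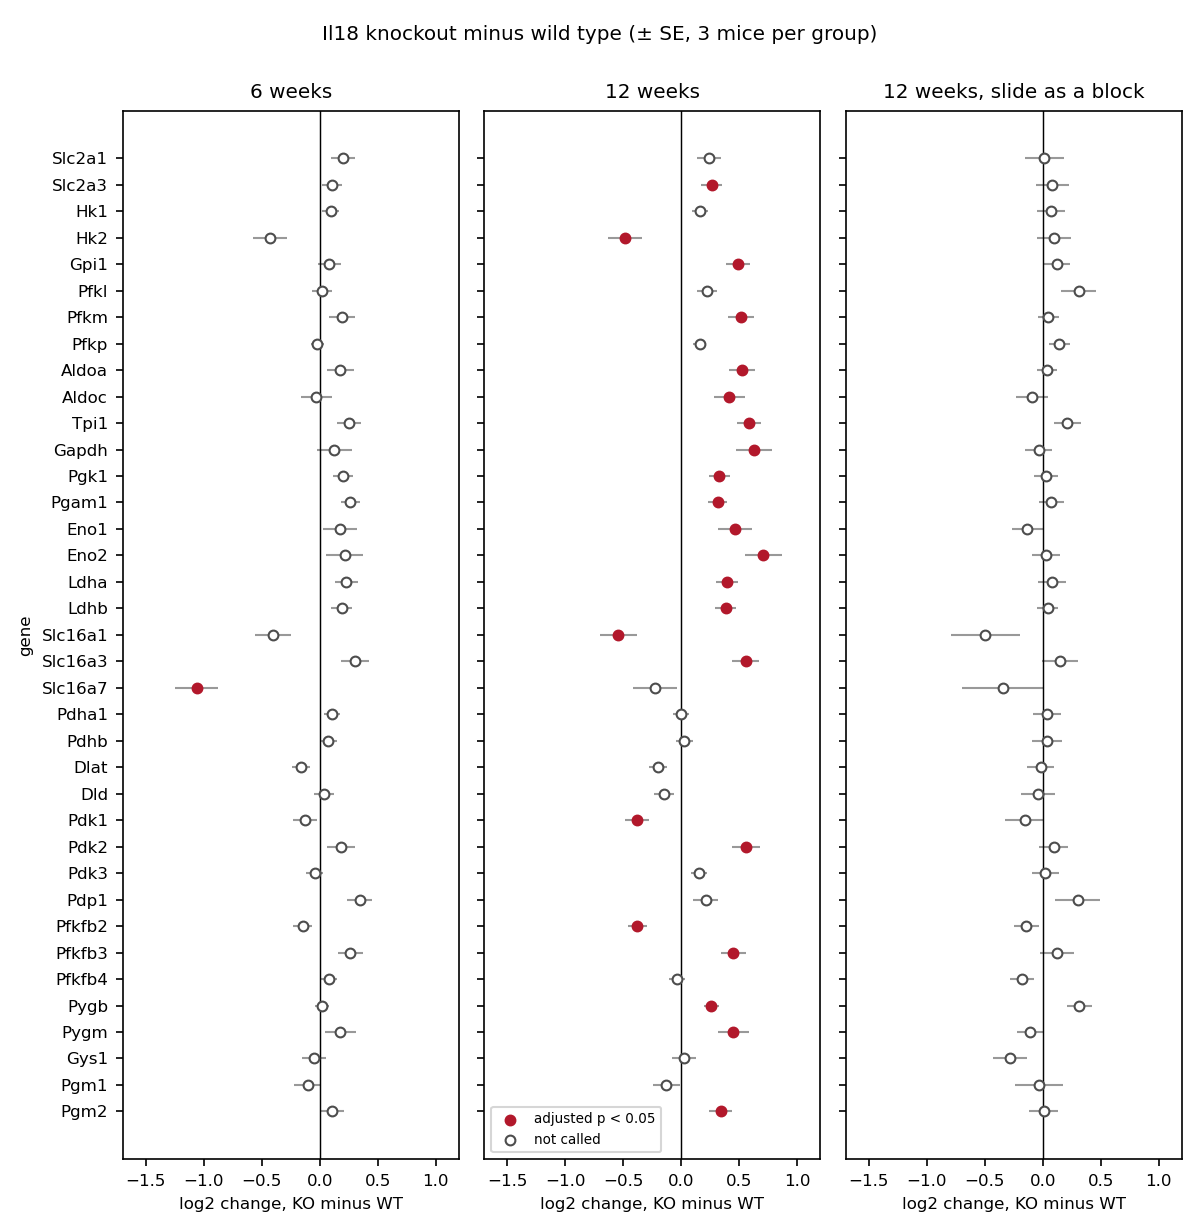
Log2 change of each of the 37 genes, knockout minus wild type, at 6 weeks, at 12 weeks and at 12 weeks with slide as a block; bars are ± SE and filled points have a limma adjusted p under 0.05. Only Slc16a7 is filled at 6 weeks, 23 genes at 12 weeks and none with the block.

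With age in knockout, Pygb was the only gene of the 37 called, at 0.29 ± 0.06 (limma adjusted p = 0.0499), where 2.01% of all genes were called (1.09% higher, 0.913% lower; 0.0717% with slide as a block, and 0 of the 37). The 12-week knockouts, at 2.42 to 2.57, lay above the 6-week knockouts at 2.19 to 2.29. On slide 2 alone its change was 0.32, with no call (adjusted p = 0.714), and the call ended when any of 4 of the 6 arrays was left out (highest adjusted p = 0.190). Gys1 had a change with age of 0.43 ± 0.10 in knockout (adjusted p = 0.0573) and of 0.36 ± 0.10 in wild type (adjusted p = 0.146), neither called. Its values were -0.21, -0.31 and -0.14 at 6 weeks and 0.23, 0.10 and 0.08 at 12 weeks in wild type, and -0.35, -0.40 and -0.06 and then 0.28, 0.03 and 0.18 in knockout, so with this probe the ages lay apart in both genotypes. Blocked by slide its change in knockout was 0.23. A second Gys1 probe gave -0.14 ± 0.13 in wild type, where the ages overlapped, and 0.32 ± 0.13 in knockout. Gys1 was singled out after its values were seen. The median of the 37 was 0.11 with age in knockout and -0.02 in wild type, against -0.01 and 0.00 over all genes. With slide as a block the knockout median was -0.03, with 13 above 0 and 24 below, against -0.05 over all genes. The ages lay wholly apart for 7 of the 37 upward and 4 downward in knockout, against 11.8% and 14.5% of all genes. In wild type it was 4 upward and 6 downward, against 12.6% and 12% of all genes.

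A difference of the knockout effect between the ages was called for 0 of the 37 genes by limma (lowest adjusted p = 0.164; 7 with an unadjusted p under 0.05), where 0.189% of all genes were called (0.0453% higher, 0.143% lower). With slide as a block it was 0 of the 37 and 0.0717% of all genes. A member's call at 12 weeks and none at 6 weeks is therefore not shown to be a difference between ages. Without 6-week knockout replicate 3 the count was 12, of which 11 were more positive at 12 weeks, and that of age in knockout went from 1 to 19, of which 17 rose. The share of all genes called without that array is not given here, so nothing is read from these counts about the list.

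The slide pattern was described across the list because it touches every 12-week value. For 18 of the 37 genes all 4 slide 2 arrays stood above all 8 slide 1 arrays, as in 17.1% of all genes, and for 4 they stood below, as in 10.7%. Within the 6-week knockouts, the slide 2 array minus the mean of the other 2 had a median of 0.23 over the 37 and of 0.07 over all genes. Of the 19 genes called higher at 12 weeks, 18 were above both others in that array, all but Pygb, and of the 4 called lower 3 were below both, all but Slc16a1. In all genes 49.5% were above both and 32.2% below both. Across the 37 genes this difference and the 12-week change, which share no array, had a Pearson r of 0.86 and a Spearman rho of 0.89, and across all genes 0.63 and 0.66. Genes are not independent replicates, and the arrays behind both values share the split by slide. Slide, scan date, genotype and their part in the 12-week change cannot be told apart from these arrays.

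**Figure D4:**
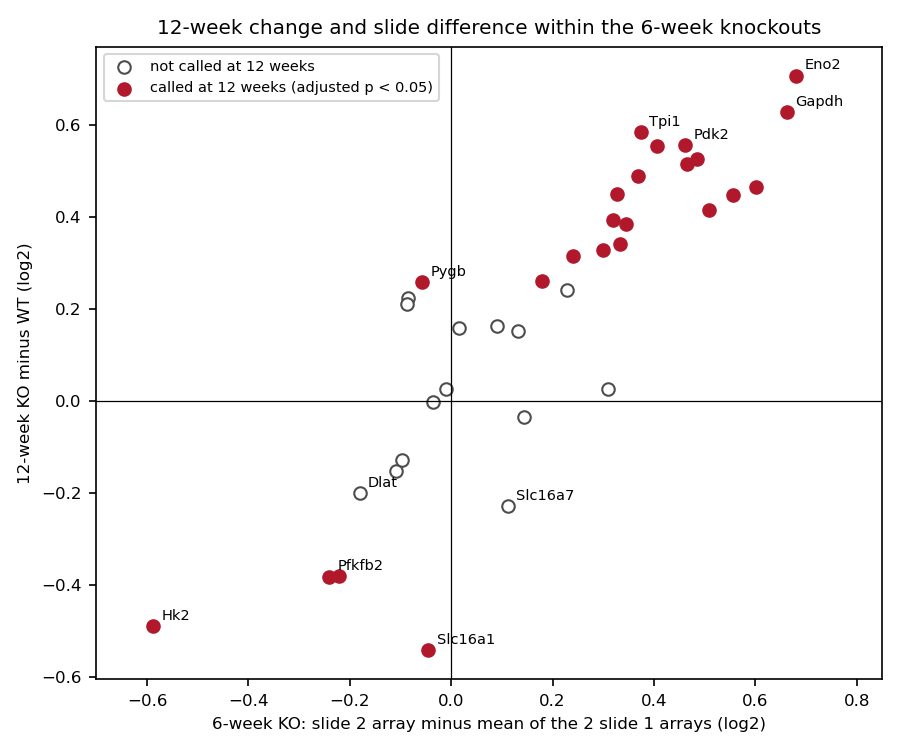
For each of the 37 genes, the 12-week change (knockout minus wild type, log2, vertical) against the difference between the slide 2 array and the mean of the 2 slide 1 arrays within the 6-week knockouts (log2, horizontal); filled points were called at 12 weeks. Most called genes lie on a rising line through 0 from Hk2 to Eno2, while Pygb and Slc16a1 changed at 12 weeks and lie near 0 on the horizontal axis. That axis sets 1 mouse against 2, so slide and mouse cannot be told apart on it.

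Brightness went with the direction as well. Of the 37 genes, 16 were in the brightest of 10 equal classes of all genes tested, ranked by mean signal, and 13 of these were called higher at 12 weeks. In that class 47.8% of all genes were called higher and 2.94% lower, with a median change of 0.24, against 0.40 for the 16. In the dimmest class 3.02% were called higher and 15.1% lower, with a median of -0.21, and none of the 37 was there. The 4 genes called lower were in classes 4 to 6, counted from the dimmest. The part of brightness in the changes was not tested.

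**Figure D5:**
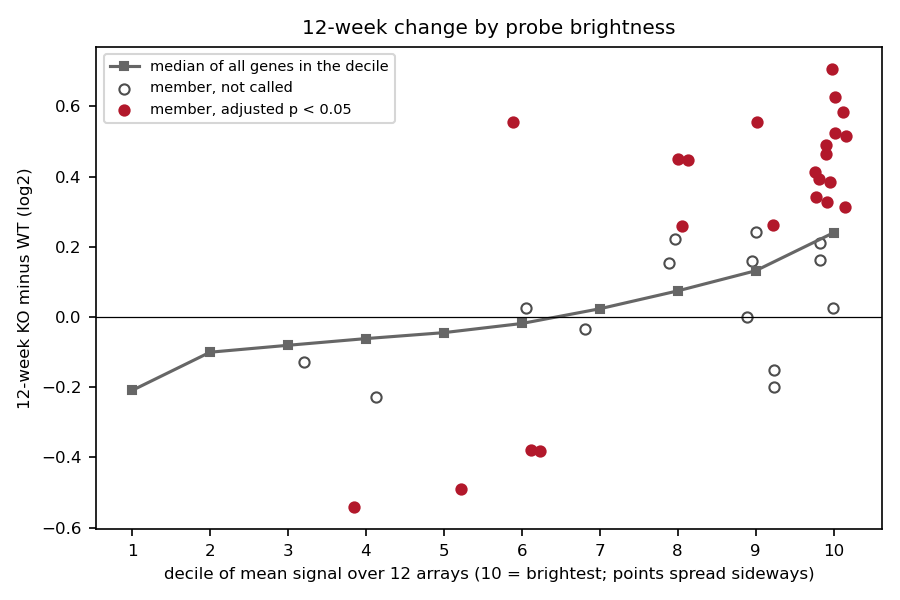
The 12-week change of the 37 genes (points; filled if called) by decile of mean signal over the 12 arrays, with the median of all genes of each decile (squares). The median rises from -0.21 in the dimmest decile to 0.24 in the brightest, where 16 of the 37 genes lie.

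Genes of neighbouring steps were counted from lists of the same pathway. Among other isoforms and steps, 35 of 39 were measured, and 7 were called higher and 5 lower at 12 weeks, where 18.5% of all genes were called higher and 14.5% lower. These counts are near the shares of all genes, so nothing is read from them about the list. Among them were Phkg2, a subunit of phosphorylase kinase (0.49 ± 0.09), Bsg, the partner protein that carries MCT1 and MCT4 to the membrane (0.44 ± 0.12), and the glucose transporter Slc2a6 (0.43 ± 0.07). Pdk4, the pyruvate dehydrogenase kinase of fasting and glucocorticoids, was the only one called at 6 weeks (0.57 ± 0.07, limma adjusted p = 0.00833). With age in wild type it was called higher (0.47 ± 0.07, adjusted p = 0.0249). Both comparisons share the 3 young wild-type arrays (-0.70, -0.69 and -0.56), so they are not separate evidence. Its change with age in knockout was -0.13 ± 0.07 and its 12-week change -0.03 ± 0.07, neither called (limma adjusted p = 0.287 and 0.770). The pentose phosphate list had 2 of 9 higher and 0 lower at 12 weeks: G6pc3, a glucose-6-phosphatase (0.62 ± 0.15), and Pgls (0.42 ± 0.09). Of 22 genes of the citric acid cycle and the shuttles 10 were higher and 1 was lower, among them Ogdh (0.60 ± 0.12), Sdhb (0.42 ± 0.11) and Idh3b (0.40 ± 0.10), with Gpd2, of the glycerol phosphate shuttle, lower (-0.35 ± 0.07). Of 18 genes that respond to hypoxia or glucose 3 were higher and 2 lower, among them P4ha1 (0.46 ± 0.11), Egln1 (0.45 ± 0.12), Esrra (0.36 ± 0.06) and the factor itself, Hif1a (-0.37 ± 0.10). With slide as a block limma called 0 genes of the 4 lists at 12 weeks.

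Some markers of cell types were called at 12 weeks as well, where 18.5% of all genes were called higher; with slide as a block 0 were. Of the neuron markers 2 of 7 were called higher at 12 weeks, of astrocytes 3 of 7, of oligodendrocytes 4 of 6, of microglia 4 of 6 and of endothelium 2 of 6, with 0 called lower in these lists. Their summed signal, in units of the array's 75th percentile, was 293 to 314 on slide 1 and 330 to 384 on slide 2 for neurons, and 79.5 to 89.1 and 92.4 to 95.4 for astrocytes. For microglia it was 33.3 to 38.3 and 40.1 to 43.3, and for endothelium 20.8 to 24.9 and 26.4 to 29.5, all without overlap between slides, while oligodendrocytes overlapped at 257 to 347 and 275 to 361. Choroid plexus had 0 of 5 called and meninges 1 higher and 1 lower of 4. Erythroid markers were higher in 2 of 4, at 64.0 to 90.3 in 12-week wild type and 91.4 to 151 in 12-week knockout. Of muscle, whose enzymes include Pygm and Pfkm, 4 of 6 markers passed the filter and 1 was higher, with sums of 0.663 to 0.977 on slide 1 and 0.772 to 0.955 on slide 2. Ckm and Mylpf, defining genes of muscle, were not past the filter. Of liver, 3 of 4 markers passed and 0 were called at 12 weeks, with sums of 0.104 to 3.03 in wild type and 0.140 to 0.252 in knockout. The part of these cell types in the changes was not tested.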

How the data were processed

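RNA of 12 whole brains was measured on one-colour Agilent arrays. Of the deposited scan columns, the signals are intensity values of fluorescence with no physical unit, per the file headers, and the other deposited columns used are flags of 0 or 1 for spots well above background and for outliers, per the file headers. Per the submitters' processing notes, Agilent Feature Extraction 10.7.3.1 read the scans. The deposited value table is an intensity as well and differed from the processed signal by at most 0.498%. Probe positions and gene names are those of the files (mm9), and RefSeq names and promoter sequences are of GRCm38.p6.

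The processed signal was taken as log2, outlier spots were left out, and the array's own 75th percentile was subtracted. Spots of a probe were averaged. A probe was kept where some group had it well above background in its 3 arrays (37198), with the brightest probe per gene (26495 genes). Where 14 members had several probes, their signs differed at 12 weeks for Pdhb and Pfkp, and at 6 weeks for 5 members. The test was that of limma 3.58.1 (lmFit and eBayes, R 4.3.3), 1 mean per group over 12 arrays and 8 residual degrees of freedom, two-sided, with Benjamini-Hochberg adjustment over all genes in each of 5 comparisons and a threshold of 0.05. Scripts were tested on simulated data. Errors with ± are SE. The replicates are separate biological samples per the labels.

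The members and lists were chosen with earlier results of these data known. In each pairwise comparison up to 8 called members were named by smallest adjusted p, with values in every array for the called members at 6 weeks, the first 4 elsewhere and Dlat, and the largest change of each role. From the lists up to 4 called genes were taken by absolute change, and some of these are not reported here. The list is short, so other members are given with single values. Array values of Eno2, Hk2, Slc16a1, Pdk2, Gys1 and the second probes were added after the values were seen, as were the classes of brightness and the comparison of the slides within the 6-week knockouts. Settings tried are in the closing section.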

Additional observations from a re-analysis of the deposited data

How the results depend on the processing

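The 5 counts of called genes were recomputed under other settings, with 22 single changes of named genes beside them. At 6 weeks the count of 1 became 0 with slide as a fixed block, within slide 1, with slide column as a block, without a filter on dim probes and with only the groups compared, and ran from 0 to 1 with an array left out. At 12 weeks the count of 23 became 0 with slide as a fixed or random block and 11 with quantile normalization (6 higher, 5 lower, 9 shared). It ran from 14 to 17 with an array left out: 14 without knockout replicate 1 or 2 and 15 without wild-type replicate 3. Median scaling gave 24 higher and 1 lower against 19 and 4, with the median of all genes at 0.14. With age in wild type the count of 1 became 0 within slide 1, with slide column as a block and without the filter, and was 0 with any array left out. With age in knockout the count of 1 became 0 with slide as a fixed, random or column block, with quantile normalization, the deposited value table, no filter or only the groups compared, and on slide 2 alone, a setting chosen after seeing the data. It was 2 with normexp or with probes above background on all 12 arrays, 3 with eBayes trend and robust, and 0 to 19 with an array left out. The difference between ages had 0 calls in all settings run, except 12 without 6-week knockout replicate 3 (range 0 to 12). Without that array, which also gave the 19, only the 12-week knockouts remain on slide 2, so age and slide cannot be told apart. Pygm turned to -0.010 at 6 weeks with slide as a block, within slide 1 and without knockout replicate 3 (-0.010 to 0.27 with an array left out), and to -0.11 at 12 weeks with the block, and Aldoa turned to -0.037 at 12 weeks with quantile normalization. Of 428 recomputed single changes, 342 kept direction and side of the threshold, 76 lost the call, 5 gained it and 5 turned. The 342 include changes that were not called in the first place and stayed so. The call of Slc16a7 at 6 weeks was kept in 9 and lost in 11, and that of Pygb with age in knockout in 6 and 14. The cause of these shifts was not tested. Shares of all genes called are not given here beside the counts, so nothing is read from the counts about the list. No fit within slide 1 was possible at 12 weeks or with age in knockout, since those knockouts are all on slide 2.

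The replicate numbers did not pair the mice: over 18 pairs of arrays with the same number, the correlation of deviations ran from -0.20 to 0.11, with 2 pairs over 0.1, and 2 arrays correlated best with their own number. With the replicate block the counts were 0 at 6 weeks, 20 at 12 weeks, 0 with age in wild type, 0 with age in knockout and 0 for the difference between ages.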
